A study of Mus musculus with 4 samples.

Results

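Immediate early and heat shock genes were examined in single-cell transcriptomes of mouse liver. The set held 40 genes, taken by symbol from a fixed list, and all 40 were found among the 32285 genes of the files. They were divided by role into 10 AP-1 and Egr transcription factors, 3 NR4A nuclear receptors, 16 other early response genes and 11 heat shock genes. Male C57BL/6J mice were given a normal chow diet and distilled water (NCD, 1 library), a high-fat diet and distilled water (HFD, 2 libraries), or a high-fat diet followed by oral Jiangtang Qingre Formula, a preparation of several medicinal herbs (JQF, 1 library). All livers were perfused, cut into pieces and digested on a shaker at 37 °C for 1 h, and the suspensions were filtered, spun and treated with red blood cell lysis buffer for 3 min. How debris and dying cells were cleared depended on quality checks of the suspensions, so the steps after digestion need not have been the same for every sample. The sample labels name hematopoietic stem cells and immune cells, whereas markers of endothelial cells, lymphocytes, myeloid cells, hepatocytes and epithelial cells were all present.

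Immediate early genes are transcribed within minutes of a stimulus because their regulators, such as CREB and serum response factor, already sit in the cell and need only be activated by kinases. Their products are mostly transcription factors and feedback inhibitors, and both proteins and mRNAs are short-lived. Heat shock genes encode chaperones and are switched on by heat shock factor when misfolded proteins accumulate. In solid tissues such as liver, both programmes are known to be induced by enzymatic dissociation at body temperature as well as by signals in the living animal, so a level read from a digested suspension may hold both parts.

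Promoters of 6 members that recur in the results are shown first, as examples of the elements through which these programmes are known to act, and not because their differences were the largest. Windows of 250 bases before the transcription start were read from RefSeq on GRCm38.p6, in which 32 of the 40 genes were matched. The cyclic AMP response element (CRE) core TGACG was present on either strand in 17 of the 32, against 19.8% of all 27025 genes with a window. Among the 17 were all 3 NR4A genes and 5 of 8 AP-1 and Egr genes. The full palindrome TGACGTCA, which contains the core on both strands, was present in Btg2, Dusp1 and Ppp1r15a, against 1.77% of all genes with a window. In the following sequences, written 5′ to 3′ on the strand of the gene, capitals mark the core, which reads CGTCA on the opposite strand, and in Dusp1 the palindrome. The Fos stretch (chr12:85473740-85473889, plus strand) and the Nr4a3 stretch (chr4:48045055-48045152, plus strand) lie before the annotated genes. The Nr4a1 stretch (chr15:101266596-101266845, plus strand) and the Dusp1 stretch (chr17:26508523-26508672, minus strand) lie in introns of longer annotated transcripts, and none of the 4 overlaps an annotated exon.
Fos: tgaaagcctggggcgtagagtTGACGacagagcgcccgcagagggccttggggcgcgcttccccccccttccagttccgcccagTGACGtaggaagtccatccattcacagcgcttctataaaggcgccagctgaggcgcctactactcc
Nr4a1: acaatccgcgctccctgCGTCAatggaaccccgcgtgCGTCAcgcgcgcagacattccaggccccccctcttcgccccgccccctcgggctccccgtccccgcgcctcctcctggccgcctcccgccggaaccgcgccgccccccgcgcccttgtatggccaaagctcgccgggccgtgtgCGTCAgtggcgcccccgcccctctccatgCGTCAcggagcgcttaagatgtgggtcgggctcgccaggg
Nr4a3: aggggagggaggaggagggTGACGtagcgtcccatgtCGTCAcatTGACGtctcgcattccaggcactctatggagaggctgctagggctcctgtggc
Dusp1: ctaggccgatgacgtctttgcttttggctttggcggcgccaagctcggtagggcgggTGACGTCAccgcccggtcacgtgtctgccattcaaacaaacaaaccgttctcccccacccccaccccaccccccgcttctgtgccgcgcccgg

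For the heat shock genes, the element of 2 inverted units was GAA and TTC in either order with 2 bases between them. It was present in 7 of 8 matched promoters and also in Egr2, Fosl2 and Jun, against 14.5% of all genes with a window. A further unit at the same spacing was present in Hspd1 and Hspe1, against 0.514% of all genes with a window. Hspa1a and Hspa1b, which encode the inducible Hsp70 chaperones, lie 9951 bases apart on the minus strand of chromosome 17. Their windows (chr17:34972157-34972406 and chr17:34959239-34959488) are intergenic, differ at 3 of 250 bases, and each holds 1 such element, given in capitals.
Hspa1a: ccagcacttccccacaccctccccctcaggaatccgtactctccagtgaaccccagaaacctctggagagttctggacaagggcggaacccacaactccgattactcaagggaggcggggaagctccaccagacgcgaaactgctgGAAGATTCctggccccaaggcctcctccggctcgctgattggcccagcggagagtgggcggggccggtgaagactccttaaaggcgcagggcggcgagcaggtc
Hspa1b: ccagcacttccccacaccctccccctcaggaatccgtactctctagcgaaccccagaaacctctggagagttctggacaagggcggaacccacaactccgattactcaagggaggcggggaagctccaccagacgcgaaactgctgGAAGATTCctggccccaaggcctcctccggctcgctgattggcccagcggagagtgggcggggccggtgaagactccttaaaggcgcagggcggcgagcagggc
The transcripts of these paralogs share 63.8% and 67.5% of their words of 31 bases but 0% in the last 500 bases, where the reads of a 3′ library fall. The AP-1 site TGANTCA was found in 0 of the 32 members matched (7.82% of all genes with a window). The serum response CArG box was found in Egr2 and Zfp36 (1.62%), and TATAAA in Fos, Gadd45b and Nr4a2 (14.3%). A match describes the letters of a window and was not tested as a site.

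After filtering, 31290 cells remained of 34746 called barcodes, with 5975 from NCD, 6516 and 10259 from HFD 1 and HFD 2, and 8540 from JQF. Cells were assigned to types by markers that hold none of the 40 genes, and 7 types had at least 50 cells in every library. Median depth was 13081 UMIs per cell in NCD and 7608 to 8884 in the other libraries. The smallest samples were 53 NK cells in NCD and 106 endothelial cells in HFD 1, whereas NCD endothelial cells numbered 3781. Levels are in CPM, the counts per 1000000 UMIs summed over all cells of a type in a library. Values in rows of 4 stand in the order NCD, HFD 1, HFD 2 and JQF. With 1 NCD and 1 JQF library, only the HFD pair gave a spread between libraries, and diet, animal and handling of those libraries cannot be told apart.

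Of the 7 types tested, neutrophils carried the highest AP-1 and Egr sums, at 23049, 22887, 18830.3 and 22654 CPM. Endothelial cells carried the lowest, at 5536, 2142, 2303 and 2011 CPM. Within every library the neutrophil sum was the highest and the endothelial sum the lowest of the 7 types. Heat shock sums were instead lowest in neutrophils in every library, with 3075, 3677, 3204 and 5451 CPM in neutrophils and 13707, 10988, 10686 and 11502 CPM in dendritic cells (DC).

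**Figure D1:**
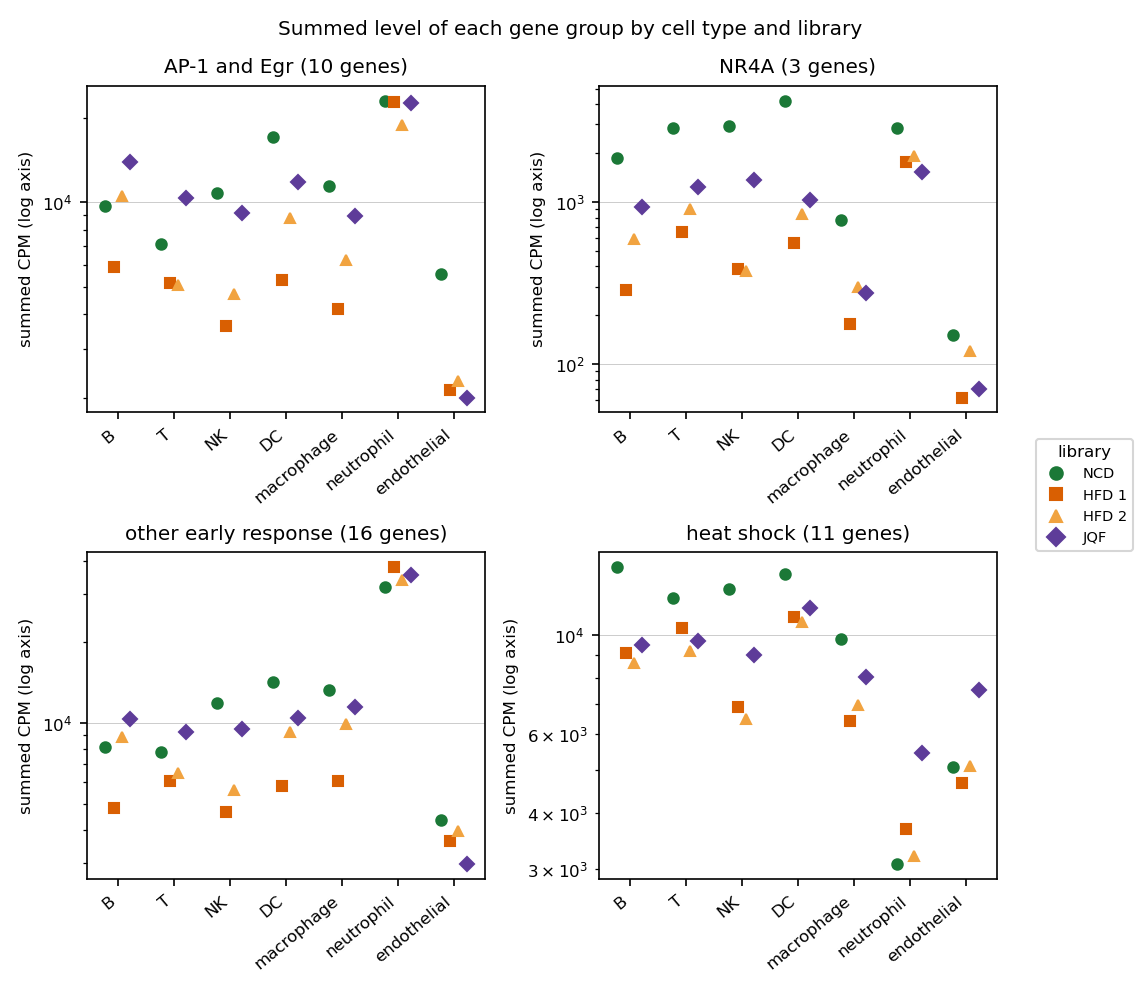
Summed CPM (log axis) of the 4 gene groups in 7 marker-gated cell types, with 1 point per library and no error bars since each point is a single library. AP-1 and Egr sums in neutrophils lie between 18830.3 and 23049 CPM in all libraries, while in NK cells NCD and JQF lie above both HFD libraries.

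Each type was tested against the mean of the other types in edgeR with the library as a block. In neutrophils 29 of 40 members were higher and 5 lower, where 32.5% and 32.1% of all genes were. All 10 AP-1 and Egr genes and 15 of the 16 other early response genes rose in neutrophils, led by Ier3, an apoptosis modulator, at 5.67 ± 0.33 (SE) log2 units, by Cebpb, a myeloid transcription factor, at 5.54 ± 0.21 (SE) and by Gadd45b, an activator of stress kinases, at 4.82 ± 0.27 (SE). Cebpd rose there at 4.47 ± 0.19 (SE), Zfp36, which destabilises mRNAs, at 3.66 ± 0.19 (SE), Dusp1 at 3.64 ± 0.21 (SE) and Nr4a1 at 3.47 ± 0.21 (SE). Socs3 at 3.21 ± 0.26 (SE), Atf3 at 3.21 ± 0.21 (SE), Junb at 3.21 ± 0.20 (SE) and Fosl2 at 3.09 ± 0.28 (SE) were of like size. Ier5, Klf2, Dusp2, Fosb, Fos, Btg2, Ier2, Ppp1r15a, Klf6, Jun and Jund followed, between 2.90 and 1.88. Nfkbia, the inhibitor that retains NF-κB in the cytoplasm, rose at 3.85 ± 0.16 (SE) and stood at 3187, 6312, 5437 and 5659.7 CPM there. In the same cells Hsph1, a nucleotide exchange factor of Hsp70, Hspe1 and Hspd1, the mitochondrial chaperonins, and Hsp90ab1, the constitutive cytosolic Hsp90, were lower, with Hsph1 at -2.44 ± 0.31 (SE). Of the 11 heat shock genes 4 were thus lower in neutrophils, and 2 others were higher.

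Endothelial cells had 33 members lower and 3 higher, where 32.2% and 35.8% of all genes were. The 3 were Hspb1, a small heat shock protein that binds actin, at 4.89 ± 0.36 (SE), Cebpd at 3.12 ± 0.19 (SE) and Socs3, an inhibitor of cytokine receptor signalling, at 0.72 ± 0.29 (SE). Hspb1 stood at 59.1, 243, 168 and 438 CPM in endothelial cells and at no more than 46.2 CPM in any other tested type. Lower there were Dusp2 at -4.44 ± 0.36 (SE), Btg2 at -2.71 ± 0.19 (SE) and Klf6 at -2.66 ± 0.24 (SE). In DC 20 members were higher (33.8% of all genes) and 2 lower (25.5%), and in macrophages 9 were higher (33.7%) and 6 lower (25.4%). The macrophage calls included Cebpb at 2.36 ± 0.22 (SE), Rgs1, which restrains chemokine receptor signalling, at 2.13 ± 0.30 (SE) and Egr2 at 1.83 ± 0.25 (SE).

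NR4A receptors are known to be induced by antigen receptor signalling in lymphocytes. Nr4a2 was higher in T cells at 2.97 ± 0.30 (SE), in DC at 2.08 ± 0.32 (SE) and in NK cells at 2.07 ± 0.32 (SE), and lower in B cells, macrophages, neutrophils and endothelial cells. Nr4a3 had the same directions apart from neutrophils, where it was higher at 2.09 ± 0.33 (SE). In T cells 9 members were higher (28.4% of all genes) and 13 lower (26.2%), in NK cells 5 were higher (20.9%) and 16 lower (23.5%), and in B cells 13 were higher (26.1%) and 11 lower (26.6%). Of the 13 in B cells 7 were heat shock genes, and Egr3 had the highest fold change, at 2.28 ± 0.36 (SE). Cebpd was lower in T cells at -3.28 ± 0.29 (SE). Over all 7 types 88 of 280 tests of members were higher and 86 lower, near the shares of 30.2% and 27.4% over the tests of all genes.

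The comparison of HFD with NCD asked how the high-fat diet group differed from chow within each type. Calls of members were mostly lower in HFD: of 279 tests over the 7 types 75 were lower and 3 higher. Of the tests of all genes 6.20% were lower and 4.40% higher. Under the alternatives in processing the lower calls numbered 85 to 116 and the higher calls 9 to 18, most without a filter on low counts. The 75 lower calls comprised 22 of 70 tests of AP-1 and Egr genes and 11 of 21 of NR4A genes. They also held 17 of 112 tests of other early response genes and 25 of 76 of heat shock genes. NK cells held the most, with 29 of 39 tested members lower, where 10.7% of all genes were. DC had 19 lower (12.2%) and 1 higher (10%), and B cells 13 lower (10.6%) and 0 higher, where 849 of 11066 genes were higher. T cells had 9 lower (8.1%) and 1 higher (5.24%), and endothelial cells 5 lower (0.939%) and 1 higher (0.69%). DESeq2 called 21 of the 34 members with an adjusted p lower in NK cells (12.2% of all genes with one) and 5 of 33 in B cells (5.24%), fewer than edgeR in both. In DC it called 18 of 40 lower (8.83%) and 1 higher (3%), and in T cells 11 of 40 lower (6.91%) and 2 higher (3.45%). The median log2 fold change over members was -1.35 in NK cells against 0.127 over all genes, -1.01 against 0.112 in DC, -0.655 against 0.0127 in endothelial cells, -0.558 against 0.0725 in B cells and -0.394 against 0.0776 in T cells.

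**Figure D2:**
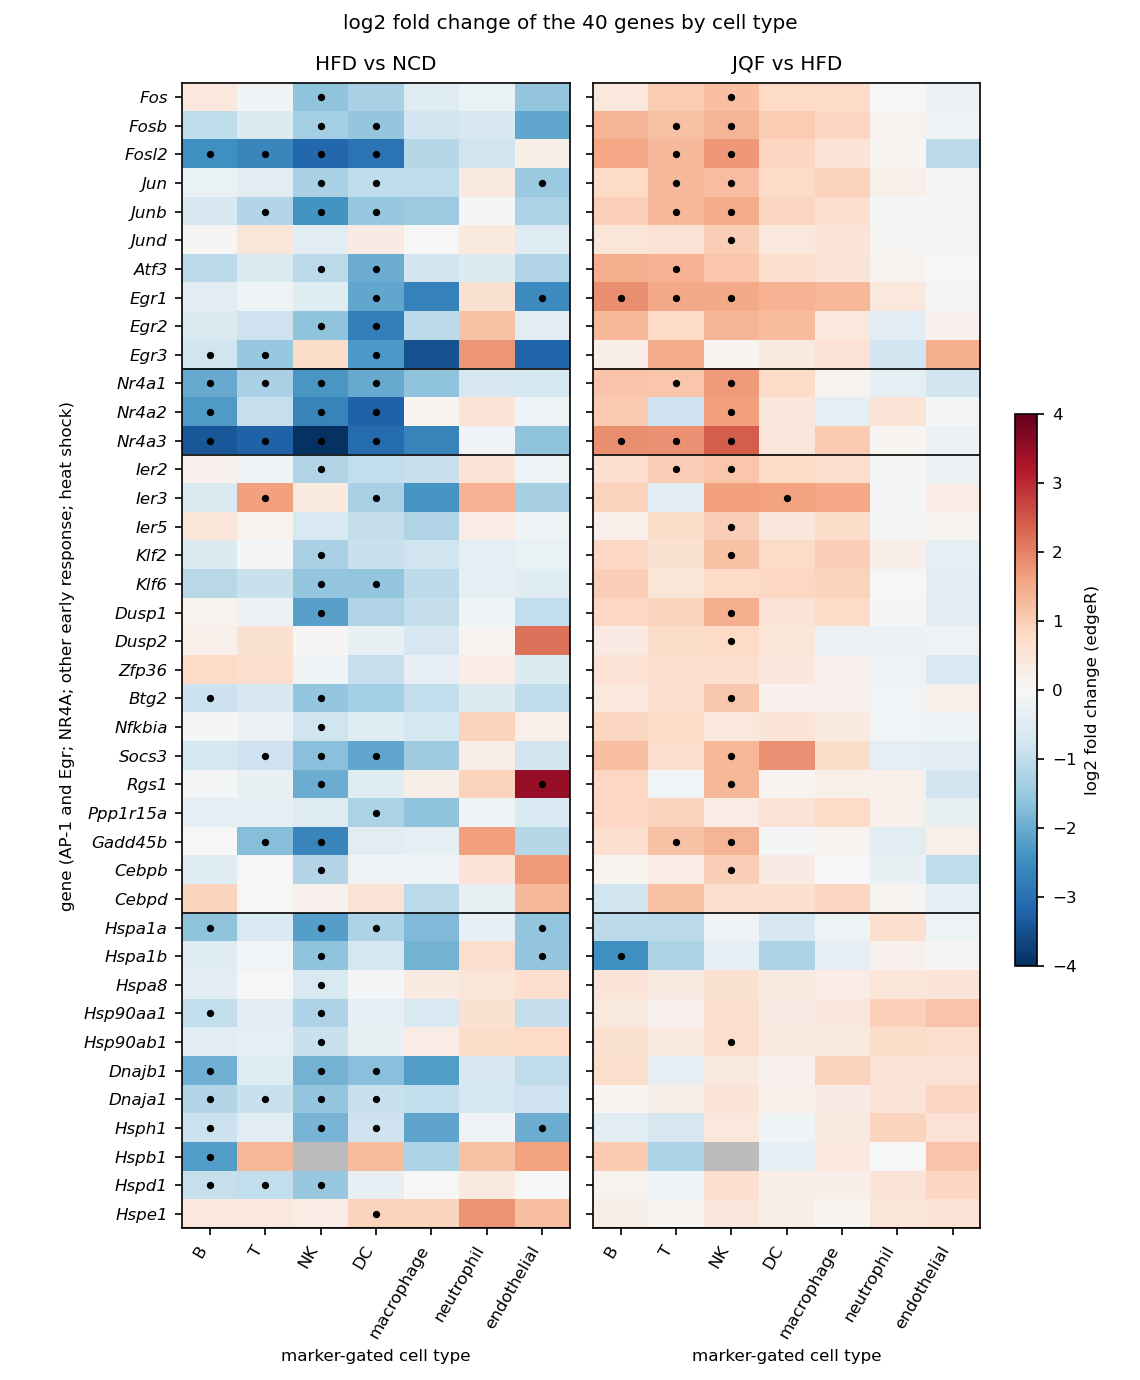
log2 fold changes from edgeR of the 40 genes (rows, in their 4 groups, separated by lines) in 7 cell types (columns) for HFD vs NCD and JQF vs HFD. Black dots mark an adjusted p below 0.05 and grey a gene that was not tested. More members are blue (lower in HFD) than red in 6 of 7 types of the left panel, neutrophils excepted, and more are red (higher in JQF) in 6 of 7 types of the right panel, endothelial cells excepted. The comparisons share the HFD libraries.

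Nr4a3, an NR4A receptor, showed the largest falls in NK cells, B cells and T cells. It stood at 1695, 155, 89.6 and 626 CPM in NK cells and at 1620.0, 199.8, 155 and 589 CPM in T cells. In DC it stood at 2051, 228, 286 and 333 CPM and in B cells at 237, 18.6, 28.2 and 79.1 CPM. In all 4 types the NCD library was the highest and the HFD libraries did not overlap it. The log2 fold changes were -3.96 ± 0.24 (SE, adjusted p = 5.3e-07), -3.23 ± 0.22 (SE, adjusted p = 9.9e-05), -3.09 ± 0.21 (SE, adjusted p = 0.0045) and -3.39 ± 0.26 (SE, adjusted p = 0.00077) in that order. In neutrophils, by contrast, Nr4a3 stood at 244, 241, 189 and 235 CPM, where the groups lay close together.

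Nr4a1 (Nur77) was highest in neutrophils in every library, at 2600.3, 1517, 1713 and 1275 CPM. In B cells it stood at 1563, 261, 546 and 826 CPM and in DC at 1345, 254, 452 and 570.2 CPM. NK cells gave 640.1, 133, 160.2 and 432 CPM and T cells 529.7, 207, 231 and 445 CPM. The gene fell in HFD in these 4 types, by 2.34 in NK cells, 2.02 in DC, 2.00 in B cells and 1.30 in T cells on the log2 scale (SE 0.19 to 0.38). Without HFD 2 the value in B cells was -2.72. Macrophages gave 638, 135, 269 and 223 CPM and endothelial cells 94.3, 31.6, 84.2 and 37.8 CPM, and in macrophages NCD lay above the other 3 libraries. Nr4a2 fell in NK cells at -2.67 ± 0.20 (SE), in DC at -3.24 ± 0.28 (SE) and in B cells at -2.27 ± 0.33 (SE). In T cells, where it did not pass the test, it stood at 708, 245, 517 and 206 CPM and the HFD libraries were themselves far apart.

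Among the AP-1 genes Fosl2, a late and more stable Fos partner of Jun, was lower in the same 4 types, at -3.14 ± 0.19 (SE) in NK cells, -2.95 ± 0.13 (SE) in DC, -2.60 ± 0.17 (SE) in T cells and -2.45 ± 0.35 (SE) in B cells. Nr4a1, Nr4a3, Fosl2 and Dnaja1 were the members called lower in all of B cells, T cells, NK cells and DC. Of all genes, 10.6%, 8.1%, 10.7% and 12.2% were called lower in these types in that order. The share of all genes called in all 4 types was not counted. Fosl2 levels were 499.6, 67.8, 61.9 and 199.8 CPM in NK cells and 388, 67.8, 62.8 and 151 CPM in T cells, and the HFD libraries lay close together. In endothelial cells they were 88.5, 149.5, 92.6 and 55.3 CPM, with HFD 1 the highest.

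Fos, the prototype of the class, was called in NK cells only, at -1.61 ± 0.24 (SE, adjusted p = 0.00042), where it stood at 3069, 878, 1432 and 2442 CPM. T cells gave 1536, 1326, 1489.8 and 2687 CPM and B cells 1551, 1336, 2957 and 2696 CPM, so that NCD did not lie above both HFD libraries in B cells. DC gave 5139.7, 1405, 3041 and 3732 CPM, macrophages 2161, 1064, 1848 and 2482 CPM and endothelial cells 1113, 385, 448 and 353 CPM, and NCD lay above both HFD libraries in all tested types but B cells. In neutrophils the levels were 6413, 5192, 5409.6 and 5454 CPM, the highest of the tested types. In DC and macrophages HFD 2 was well above HFD 1.

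Jun, the main partner of Fos, stood at 1599, 717, 793 and 1637 CPM in NK cells, 2444, 1064, 1500.5 and 2085 CPM in DC and 1269, 520.2, 488 and 479 CPM in endothelial cells, with NCD above both HFD libraries in each. It fell at -1.28 ± 0.17 (SE), -1.02 ± 0.25 (SE) and -1.49 ± 0.20 (SE) respectively. Elsewhere it gave 1014, 852, 711 and 1821 CPM in T cells, 1599, 883, 1853 and 2217 CPM in B cells, 1769, 773, 911 and 1586 CPM in macrophages and 2353, 3581, 2394 and 3566 CPM in neutrophils, with no call. Junb fell in NK cells at -2.39 ± 0.19 (SE), in DC at -1.53 ± 0.30 (SE) and in T cells at -1.17 ± 0.25 (SE). Jund, the constitutive Jun protein, was called in no type.

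Egr1, a zinc finger factor and a classic serum response gene, fell in endothelial cells at -2.55 ± 0.21 (SE, adjusted p = 0.037) and in DC at -2.06 ± 0.16 (SE, adjusted p = 0.0047). Endothelial cells gave 972, 207, 168 and 178 CPM and DC 1202, 317, 299 and 771 CPM. Macrophages gave 2686, 364, 435 and 1004 CPM without a call, and there NCD was far above the other libraries. The values were 614, 498, 442 and 1584 CPM in B cells, 138, 158, 88.7 and 332 CPM in T cells, 104, 97.0, 69.9 and 223 CPM in NK cells and 905, 1892, 803 and 1901 CPM in neutrophils, and in T cells and neutrophils NCD lay between the HFD libraries. Egr2 fell in DC at -2.72 ± 0.18 (SE) and in NK cells at -1.61 ± 0.48 (SE), and Egr3 in DC at -2.28 ± 0.14 (SE), in T cells at -1.51 ± 0.34 (SE) and in B cells at -0.81 ± 0.21 (SE). Atf3, a stress-induced repressor of the same bZIP family, fell in DC at -1.97 ± 0.44 (SE), a value of -2.70 without HFD 2, and in NK cells at -1.09 ± 0.31 (SE). Fosb fell in DC at -1.55 ± 0.31 (SE) and in NK cells at -1.35 ± 0.24 (SE).

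Of the 16 other early response genes, all tested in these types, 10 fell in NK cells (10.7% of all genes), 4 in DC (12.2%), 2 in T cells (8.1%) and 1 in B cells (10.6%), so the T and B counts were near or below the share of all genes. Dusp1, a phosphatase that switches off MAP kinases, stood at 1898, 478, 486 and 1214 CPM in NK cells and fell at -2.18 ± 0.17 (SE, adjusted p = 2.3e-06). It gave 1173, 978, 1052 and 1775 CPM in T cells, 386, 348, 545 and 731 CPM in B cells and 1982, 601, 1222 and 1299.7 CPM in DC with no call. Macrophages gave 2769.6, 952, 1837 and 2357 CPM, endothelial cells 1044, 491, 686 and 434 CPM and neutrophils 7236, 6646, 6073 and 6762 CPM, and NCD was the highest library in all 3. Gadd45b fell in NK cells at -2.63 ± 0.18 (SE) and in T cells at -1.71 ± 0.18 (SE), Rgs1 in NK cells at -1.98 ± 0.21 (SE), Btg2, an inhibitor of proliferation, in NK cells at -1.54 ± 0.22 (SE) and in B cells at -0.85 ± 0.23 (SE), and Klf6 in NK cells at -1.53 ± 0.22 (SE) and in DC at -1.57 ± 0.28 (SE). Socs3 was lower in DC at -2.07 ± 0.33 (SE), in NK cells at -1.67 ± 0.31 (SE) and in T cells at -0.82 ± 0.21 (SE). The remaining falls were those of Ier2, Cebpb, Klf2 and Nfkbia in NK cells, between -0.79 and -1.29, and of Ier3 and Ppp1r15a, a phosphatase subunit of the stress response, in DC, at -1.30 and -1.26.

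The 3 higher calls in HFD were of Rgs1, Ier3 and Hspe1. Rgs1 in endothelial cells stood at 5.30, 41.3, 79.8 and 38.2 CPM, at 3.47 ± 0.46 (SE), or 2.78 without HFD 2. Summed macrophage markers (8 genes) in the same endothelial cells were 22.0, 694, 309 and 159 CPM, with 8, 6, 8 and 8 markers detected, and Rgs1 itself stood at 1195, 1072, 1644 and 1574 CPM in macrophages. The part of macrophage RNA in this difference was not tested. Ier3 rose in T cells at 1.63 ± 0.36 (SE), with 14.2, 31.9, 57.2 and 31.2 CPM. Macrophage markers (8 genes, all detected) in these T cells were 25.9, 63.8, 258 and 44.3 CPM, in the same order of libraries, and Ier3 stood at 356, 53.5, 80.8 and 197 CPM in macrophages. Neutrophil markers (6 genes, all detected) in these T cells were 16.4, 59.6, 38.7 and 67.6 CPM, and Ier3 in neutrophils stood at 415, 1345, 791 and 1082 CPM. The part of macrophage and neutrophil RNA was not tested here either. Hspe1 rose in DC at 0.92 ± 0.18 (SE), and its NCD level was below both HFD libraries in all 7 types.

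Of the heat shock genes 9 of the 10 tested fell in NK cells, where 10.7% of all genes did, and 7 of 11 in B cells (10.6%). Hspa1a stood at 735, 207, 160.2 and 155 CPM in NK cells and 1455, 525, 477 and 223 CPM in B cells, and fell at -2.19 ± 0.19 (SE, adjusted p = 6.1e-06) and -1.60 ± 0.20 (SE, adjusted p = 0.0035). In DC it gave 2507, 1094, 1189 and 688 CPM and in endothelial cells 676, 269.8, 234 and 215 CPM, with fold changes of -1.23 ± 0.17 (SE) and -1.59 ± 0.20 (SE). Macrophages gave 1719, 459, 521 and 420.0 CPM, T cells 797, 699, 372 and 237 CPM and neutrophils 264, 241, 169.9 and 335 CPM, and NCD lay above both HFD libraries in each. Its neighbour Hspa1b fell in NK cells at -1.61 ± 0.19 (SE) and in endothelial cells at -1.56 ± 0.20 (SE).

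Dnajb1, the Hsp40 partner that hands substrates to Hsp70, stood at 472, 144, 151 and 178 CPM in NK cells, 612, 152, 187 and 255 CPM in B cells and 364, 125, 117 and 129 CPM in DC, and fell at -1.88 ± 0.18 (SE), -1.91 ± 0.23 (SE) and -1.69 ± 0.15 (SE). It gave 365, 309, 214 and 197 CPM in T cells, 287, 58.3, 59.8 and 111 CPM in macrophages, 97.8, 52.3, 54.1 and 79.0 CPM in endothelial cells and 173, 134, 85.0 and 169 CPM in neutrophils, with NCD above both HFD libraries throughout. Dnaja1 fell in NK cells, B cells, T cells and DC, between -0.90 and -1.55, and Hsph1 in endothelial cells, NK cells, B cells and DC, between -0.84 and -2.00. Hsp90aa1, the inducible Hsp90, fell in NK cells at -1.23 ± 0.20 (SE) and B cells at -0.97 ± 0.21 (SE), Hsp90ab1 in NK cells at -0.88 ± 0.16 (SE), and Hspd1 in NK cells, T cells and B cells, between -0.92 and -1.5.

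Hspa8, the constitutive relative of Hspa1a, was called in NK cells only. It fell at -0.62 ± 0.17 (SE, adjusted p = 0.024), with 2559, 1810.3, 2012 and 2687 CPM. The other levels were 2340.0, 2218, 2463 and 2861 CPM in T cells, 2561, 1861, 2133 and 2642 CPM in B cells and 3612, 3421, 3809 and 4474 CPM in DC. In endothelial cells it gave 898, 1462, 1716 and 2271 CPM, in macrophages 1954, 2203, 2618 and 2978 CPM and in neutrophils 809, 1069.9, 1139.8 and 1587 CPM, and in these 3 types NCD was the lowest library. Hspb1 fell in B cells at -2.25 ± 0.30 (SE), from 46.2, 11.5, 8.79 and 19.2 CPM, beside endothelial markers (10 genes) of 126, 4.02, 26.4 and 13.2 CPM in those cells, with 10, 3, 10 and 8 of them detected, and the part of endothelial RNA was not tested.

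In macrophages 0 of 40 members were called by edgeR (0.00783% of all genes were lower), 25 had an unadjusted p below 0.05, as did 32.4% of all genes, and DESeq2 called 16 of 40, all lower, where it called 4% of genes lower. The NCD level lay above both HFD libraries for 34 of the 40 in macrophages, as it did for 43.2% of all genes. In endothelial cells it did so for 26 of 40 (30.5% of all genes), and DESeq2 called 14 lower (2.86%) and 6 higher (3.44%). In neutrophils edgeR called 0 members (0% of all genes were lower), and 9 had an unadjusted p below 0.05, as did 17.2% of all genes. There DESeq2 called 3 of the 34 members with an adjusted p, all higher (4.53% of genes), and NCD lay above both HFD libraries for 15 of 40 (38.5%). The median log2 fold change was -0.977 in macrophages and 0.311 in neutrophils, against 0.063 and 0.0954 over all genes.

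Genes of the same pathways outside the 40 were counted from lists of known membership. The lists were chosen with earlier results of these data known, so their counts are not independent of those results. Of 40 further early response genes and regulators found, 63 of 262 tests over the 7 types were called lower in HFD and 2 higher, or 24.0% and 0.763%, where 6.20% and 4.40% of the tests of all genes were. Dusp5, a phosphatase specific for ERK, was lower in NK cells at -2.51 ± 0.19 (SE), in B cells at -2.09 ± 0.24 (SE) and in endothelial cells at -2.04 ± 0.22 (SE). Of 36 further chaperones and regulators, 33 of 234 tests were lower (14.1%) and 7 higher (2.99%), with Hspa5, the endoplasmic reticulum chaperone, lower in NK cells at -1.37 ± 0.18 (SE) and Serpinh1, a collagen chaperone, higher in endothelial cells at 2.15 ± 0.23 (SE). Of integrated stress response genes, 10 of 65 tests were lower (15.4%) and 4 higher (6.15%). All 4 were Ddit4, an inhibitor of mTOR signalling, at 2.87 ± 0.40 (SE) in B cells, 2.80 ± 0.32 (SE) in DC, 2.45 ± 0.46 (SE) in NK cells and 0.90 ± 0.21 (SE) in T cells.

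The comparison of JQF with HFD asked how the formula group differed from the high-fat diet group given distilled water. It uses the same HFD libraries, so its values are given beside the former comparison and were not correlated with it. Here 34 of 279 tests of members were called higher in JQF and 1 lower, where 0.573% and 0.159% of the tests of all genes were. With Leiden clusters in place of gates 22 were higher and 0 lower, 20 of them shared with the 35, and without a filter on low counts 77 were higher and 7 lower. The 35 calls comprised 14 of 70 tests of AP-1 and Egr genes, 6 of 21 of NR4A genes and 13 of 112 of other early response genes. Heat shock genes gave 2 of 76, of which 1 was the lower call. NK cells had 21 of 39 members higher, where 2.94% of all genes were, and T cells 10 of 40 (1.02%). B cells had 2 higher (0.253%) and 1 lower (0.0452%), and DC had 1 higher (0.0636%). DESeq2 called 11 of the 34 members with an adjusted p in NK cells (2.61% of genes) and 13 of 40 in T cells (1.12%), all higher. In B cells it called 1 higher (0.105%) and 1 lower (0.0209%), and in DC 3 higher (0.2%) and 1 lower (0.056%). The median log2 fold change over members was 0.999 in NK cells, 0.688 in B cells, 0.686 in T cells and 0.457 in DC, against -0.0298, -0.0208, -0.01 and -0.0126 over all genes.

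In NK cells the rise covered 7 AP-1 and Egr genes, all 3 NR4A genes, 10 other early response genes and Hsp90ab1. Nr4a3 rose at 2.44 ± 0.23 (SE, adjusted p = 0.00013), Fosl2 at 1.73 ± 0.18 (SE, adjusted p = 0.00024) and Nr4a1 at 1.69 ± 0.18 (SE, adjusted p = 0.00033). Dusp1 rose at 1.45 ± 0.17 (SE), Junb at 1.48 ± 0.19 (SE), Egr1 at 1.5 ± 0.20 (SE), Jun at 1.23 ± 0.17 (SE) and Fos at 1.19 ± 0.23 (SE). The other AP-1 and NR4A calls were Fosb at 1.35 ± 0.23 (SE), Jund at 1.00 ± 0.17 (SE) and Nr4a2 at 1.64 ± 0.19 (SE). Among feedback inhibitors Btg2 rose at 1.09 ± 0.21 (SE), Socs3 at 1.33 ± 0.25 (SE), Rgs1 at 1.33 ± 0.21 (SE) and Dusp2 at 0.80 ± 0.18 (SE), and among the remaining early response genes Gadd45b at 1.37 ± 0.18 (SE), Klf2 at 1.19 ± 0.25 (SE), Ier2 at 1.12 ± 0.18 (SE), Cebpb at 0.98 ± 0.19 (SE) and Ier5 at 0.97 ± 0.18 (SE). Junb stood at 3346, 635, 832 and 1891 CPM, with both NCD and JQF above the HFD libraries. Neutrophil markers (6 genes) in these NK cells were 41.6, 13.4, 29.9 and 163 CPM, likewise higher in NCD and JQF than in both HFD libraries, with 2, 6, 5 and 5 detected. S100a9, Csf3r, Retnlg and Cxcr2 were at 0 in NCD, and Retnlg in HFD 2 and JQF. The part of neutrophil RNA in the NK results was not tested. Hsp90ab1 stood at 2659, 1659.5, 1666 and 2494 CPM and rose at 0.70 ± 0.16 (SE), whereas Hspa1a in the same cells was lowest in JQF.

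In T cells Nr4a3 rose at 1.83 ± 0.22 (SE, adjusted p = 0.0039), Egr1 at 1.53 ± 0.26 (SE), Atf3 at 1.40 ± 0.18 (SE), Jun at 1.31 ± 0.23 (SE), Fosl2 at 1.30 ± 0.17 (SE) and Nr4a1 at 1.11 ± 0.20 (SE). Junb rose at 1.30 ± 0.25 (SE), Fosb at 1.17 ± 0.21 (SE), Gadd45b at 1.16 ± 0.18 (SE) and Ier2 at 0.99 ± 0.19 (SE). Atf3 stood at 196, 139, 129.9 and 334 CPM and Junb at 2407, 1055, 1125 and 2530.1 CPM, so that JQF exceeded NCD as well as HFD. Plasma cell markers in these T cells were 1.35, 3.67, 9.99 and 39.6 CPM and stellate markers 1.46, 0.374, 1.025 and 36.0 CPM. DC markers were 30.7, 49.2, 34.2 and 72.5 CPM and plasmacytoid DC markers 14.9, 18.1, 17.7 and 36.8 CPM. These were highest in JQF, whereas macrophage markers were highest in HFD 2 and hepatocyte markers in NCD. The part of such RNA in the T cell results was not tested. B cells showed Egr1 higher at 1.87 ± 0.20 (SE) and Nr4a3 at 1.86 ± 0.27 (SE). Erythroid markers (3 genes, with 3, 3, 2 and 3 detected) in these B cells were 17.6, 1.51, 7.87 and 839 CPM, so JQF stood far above the other libraries, and their part in the results in B cells was not tested. Hspa1b in B cells stood at 1310.1, 1194, 772 and 165 CPM and was the member that fell, at -2.44 ± 0.30 (SE, adjusted p = 0.025). In DC Ier3 rose at 1.61 ± 0.13 (SE, adjusted p = 0.045), from 67.1, 30.9, 27.5 and 84.9 CPM.

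Endothelial cells (0% of all genes higher), macrophages (0.00783%) and neutrophils (0%) had 0 members called by edgeR. Unadjusted p was below 0.05 for 10, 7 and 0 of 40 members in that order, and for 4.29%, 8.71% and 2.15% of all genes. DESeq2 called 0 members in endothelial cells and neutrophils, and in macrophages 2, both higher (0.195%). The median log2 fold change over members was -0.0656 in endothelial cells, 0.484 in macrophages and 0.0854 in neutrophils, against 0.00371, -0.0157 and -0.0106 over all genes. In endothelial cells the groups differed in direction, with a median of 0.57 for heat shock genes, of which 8 of 11 had an unadjusted p below 0.05, and of -0.0656 for AP-1 and Egr genes, -0.222 for NR4A genes and -0.343 for other early response genes. Summed heat shock levels in endothelial cells were 5059, 4660.2, 5092 and 7519 CPM. In neutrophils the heat shock median was 0.529 and the sums were 3075, 3677, 3204 and 5451 CPM, and in both types JQF was the highest library. The JQF level lay above both HFD libraries for 30 of 40 members in macrophages, as for 37.9% of all genes, for 33 of 40 in DC (28%) and for 19 of 40 in neutrophils (35.9%). In endothelial cells it lay above both for 12 of 40 (33.9%) and below both for 15 (32.3%). Of the lists outside the 40, 19 of 262 tests of early response genes were higher, all in NK and T cells, and 0 were lower, a share of 7.25% higher where 0.573% of the tests of all genes were. Csrnp1, a nuclear protein of this class, rose at 1.89 ± 0.23 (SE) in NK cells and 1.5 ± 0.17 (SE) in T cells. Integrated stress response genes gave 2 higher calls among 65 tests, both in NK cells, and other chaperones 0 among 234.

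Summed over all kept cells, the genes stood in another order, and the libraries held different mixtures of types. NCD was mostly endothelial, with 3781 of 5975 kept cells. Fos stood at 1551, 1965, 2442 and 3186 CPM over whole libraries, lowest in NCD, although it was above the HFD mean in NCD in 6 of 7 types. Of the 10 AP-1 and Egr genes 4 were below the HFD mean in NCD over whole libraries, and 3 of these 4 were above it in at least 5 types. For NR4A genes 1 of 3 was below, and it was above the mean in at least 5 types. For other early response genes 11 of 16 were below, and 5 of these were above in at least 5 types. For heat shock genes the counts were 5 of 11 and 2. In whole libraries a change in cell numbers and a change in RNA per cell cannot be told apart. Nr4a3 was the member with the highest NCD to HFD ratio over whole libraries, at 334, 145, 91.2 and 321 CPM. Hspa1a at 840.4, 845, 614 and 379.7 CPM and Hspa1b at 918, 1022, 535 and 337 CPM were lowest in JQF, whereas Hspa8 at 1313, 2509.7, 2755 and 3096 CPM and Hsp90ab1 at 1158, 1842, 1847 and 2495 CPM were highest there.

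**Figure D3:**
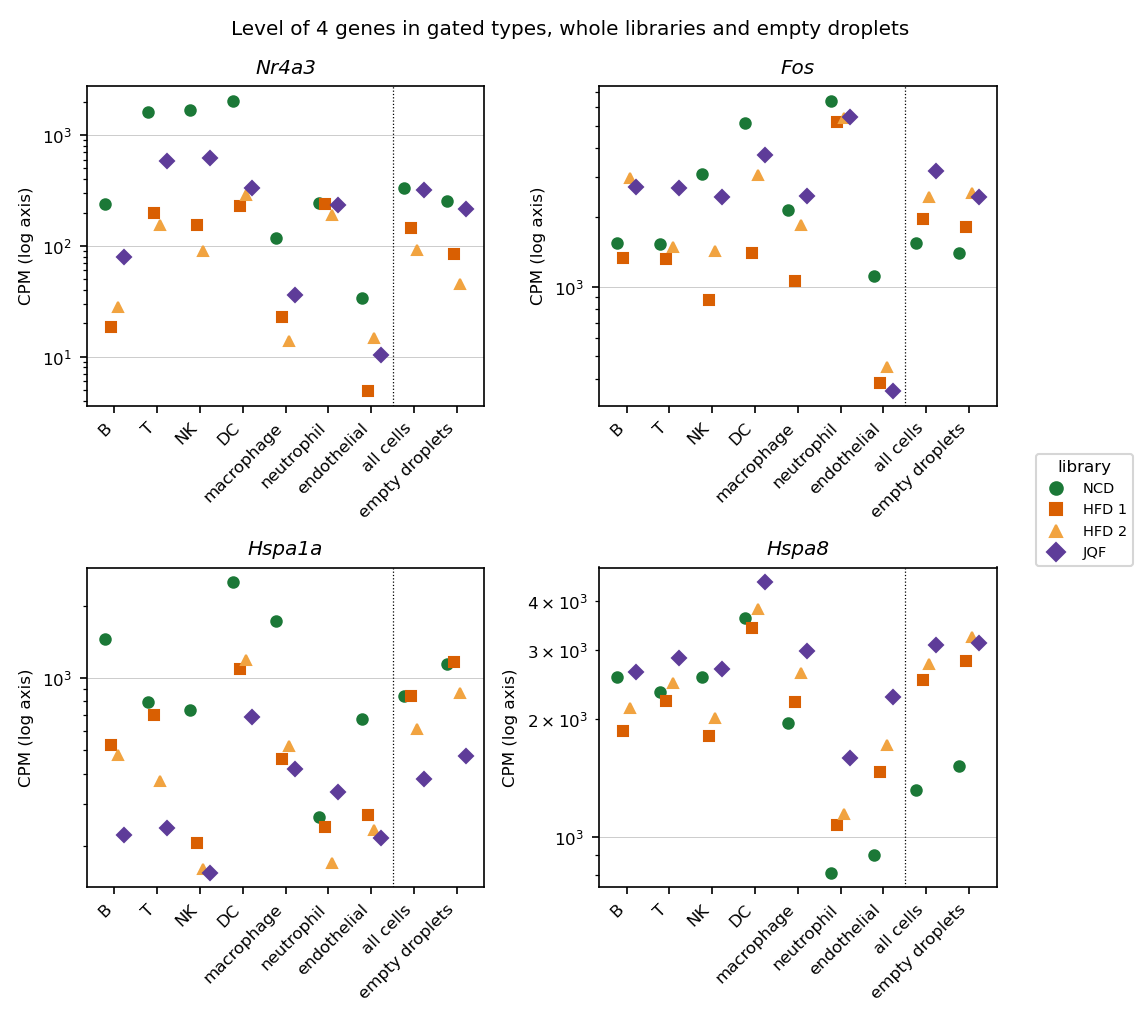
CPM (log axis) of Nr4a3, Fos, Hspa1a and Hspa8 in 7 gated types and, right of the dotted line, in all kept cells and in barcodes with 1 to 100 UMIs (empty droplets). Each point is 1 library. Nr4a3 in NCD is the highest point in B cells, T cells, NK cells and DC, Fos over all cells is lowest in NCD, and Hspa1a over all cells is lowest in JQF.

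Hspa8 in JQF lay above both HFD libraries in all 7 types, while Hspa1a in JQF lay below both in 6 of 7 types, neutrophils excepted. Among all genes, the share above both was lowest in NK cells (2722 of 10278) and highest in macrophages (4832 of 12765). Over the 6 types, the share below both was lowest in endothelial cells (4400 of 13633) and highest in NK cells (5015 of 10278). In NK cells, endothelial cells and macrophages Hspa1a in JQF was close to the lower HFD library. Only the fall of Hspa1b in B cells and the rise of Hsp90ab1 in NK cells passed the test among heat shock genes of this comparison. The call of Hspa1b was lost with DESeq2 size factors, with no filter on low counts and with Leiden clusters.

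Whether these changes differed between types was tested directly as an interaction in edgeR, with the library as a block, for 3 pairs of types chosen after the data had been examined. The change from NCD to HFD differed between NK and endothelial cells for 21 members, 18 of them more negative in NK cells (8.86% of all genes were called either way). The difference was -3.36 ± 0.29 (SE) for Fosl2 and -2.57 ± 0.33 (SE) for Nr4a3, but 2.05 ± 0.32 (SE) for Egr1, more positive in NK cells. The change from HFD to JQF differed for 21 members, all more positive in NK cells (2.57%). Between T and endothelial cells 16 members differed for HFD vs NCD, 7 more negative and 9 more positive in T cells (7.05%), and 19 for JQF vs HFD, 3 more negative and 16 more positive (2.59%). Between NK cells and neutrophils 18 differed for HFD vs NCD, all more negative in NK cells (2.02%), with Gadd45b at -4.49 ± 0.48 (SE). For JQF vs HFD 1 differed, Nr4a3, at 2.45 ± 0.42 (SE) (0.186%). In the fits with endothelial cells edgeR estimated an infinite prior, so those tests rest on a spread shared by all genes and not on that of each gene.

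The gated types held several clusters of cells, and libraries filled them unequally. NCD endothelial cells fell mainly in cluster 0 (1303 gated cells, median 6436 UMIs) and cluster 2 (2246 cells, median 19308 UMIs), whereas HFD and JQF endothelial cells fell mainly in cluster 1. In cluster 1, with 64, 64, 933 and 458 cells, the AP-1 and Egr sum was 9939.7, 1771, 2060.0 and 1593 CPM, and in cluster 3 it was 7232, 2319, 2387 and 2453 CPM. NCD was above the other libraries in both. Its cells were also deeper in cluster 1, with median UMIs of 16819 against 5237, 5892 and 7954, whereas in cluster 3 the medians were 9121, 8855, 7874 and 8799. The part of depth in cluster 1 was not tested. Its own cluster 0 held 1615 CPM and its own cluster 2 held 6125 CPM. These values were added after the data had been examined and carry no test.

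**Figure D4:**
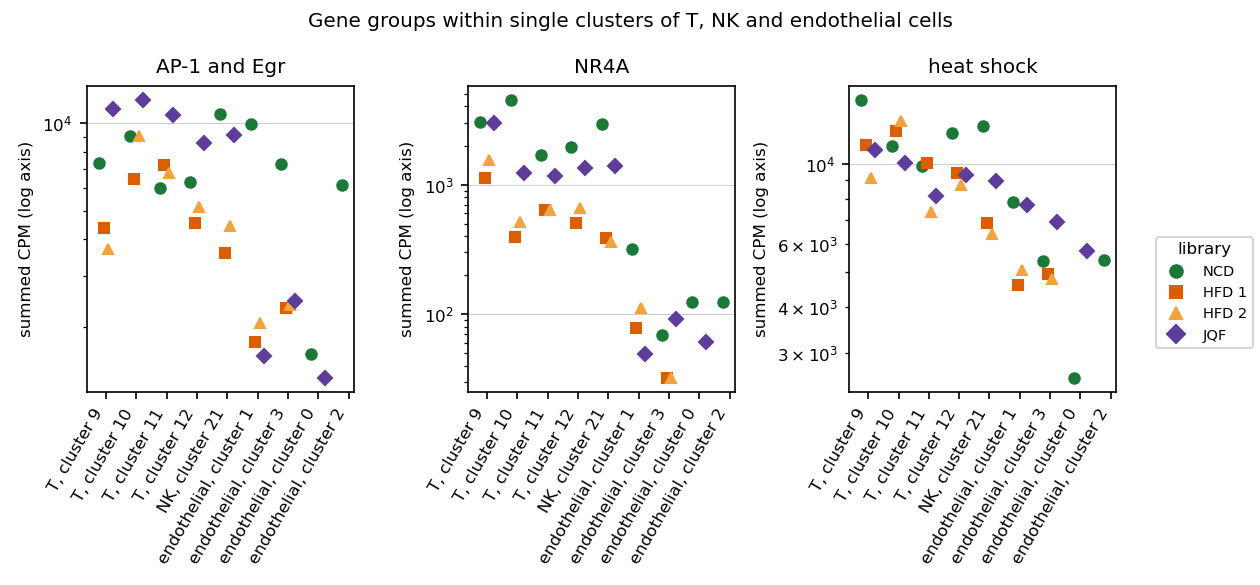
Summed CPM (log axis) of AP-1 and Egr, NR4A and heat shock genes within single clusters of T, NK and endothelial cells, with 1 point per library where a cluster held at least 20 gated cells of it. In all T cell clusters shown, JQF has the highest AP-1 and Egr point, and NR4A points of NCD lie above both HFD libraries.

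Among T cells, cluster 10 was mostly JQF (2009 of 2918 cells). The AP-1 and Egr sum was 7329, 4372, 3711 and 11194 CPM in cluster 9, 9021, 6442, 9039 and 12036 CPM in cluster 10, 6003, 7209, 6781 and 10670.5 CPM in cluster 11 and 6318, 4558, 5185 and 8585 CPM in cluster 12. JQF was the highest library in all 4, while NCD was below both HFD libraries in cluster 11. NR4A sums were 3048, 1128, 1555 and 2980.3 CPM, 4497, 397, 515 and 1233 CPM, 1705, 640.5, 633 and 1166 CPM and 1934, 509, 659 and 1338 CPM in the same order of clusters. Heat shock sums were 14996, 11272, 9122 and 10914 CPM in cluster 9 and 12164, 9398, 8709 and 9290 CPM in cluster 12. They were 11170.5, 12291, 13148 and 10017 CPM in cluster 10 and 9839, 10034, 7363 and 8147 CPM in cluster 11. NCD was thus highest in clusters 9 and 12, below both HFD libraries in cluster 10 and between them in cluster 11. In NK cluster 21 the AP-1 and Egr sum was 10805, 3596, 4440.4 and 9120.2 CPM and the heat shock sum 12684, 6838, 6395 and 8927 CPM.

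At equal depth of 3000 UMIs per cell, members were also counted cell by cell. The median number of AP-1 and Egr UMIs per cell was 53, 8, 26 and 35 in DC, 32, 5, 10 and 26 in NK cells, 19.5, 9, 12 and 30 in T cells and 66, 71.5, 56 and 69.5 in neutrophils. In DC the share of cells with 0 such UMIs was 0, 7.86, 1.95 and 1.49%. The tenth percentile of NCD DC, at 18.1 UMIs, was above the median of HFD 1. NR4A genes gave 0 UMIs in 7.42, 72.1, 35.6 and 29.7% of B cells, 5.66, 65.1, 57.5 and 19.1% of NK cells and 74.0, 82.3, 83.9 and 85.8% of endothelial cells. Heat shock medians were 39, 20, 22 and 25 in B cells and 12, 12.5, 13 and 22 in endothelial cells.

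**Figure D5:**
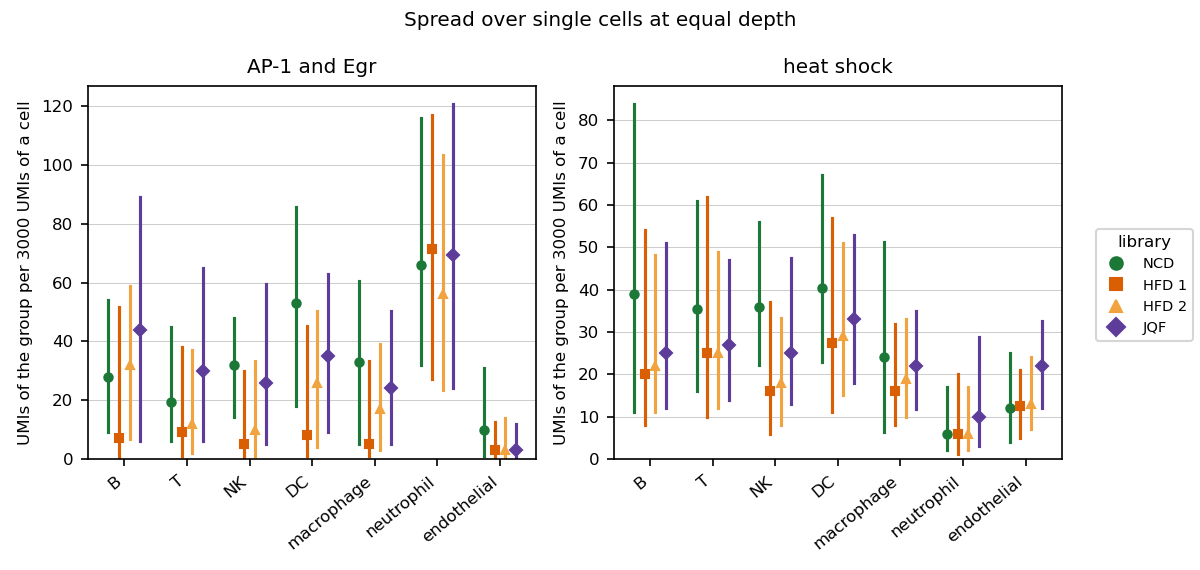
UMIs of AP-1 and Egr genes and of heat shock genes per cell, each cell thinned to 3000 UMIs, by type and library. Markers are medians and bars run from the tenth to the ninetieth percentile over cells, which are not replicates. HFD 1 medians of AP-1 and Egr genes are at most 9 in B cells, T cells, NK cells, DC and macrophages, and neutrophil medians lie between 56 and 71.5.

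The HFD libraries differed from each other in this measure. In B cells the AP-1 and Egr median was 28, 7, 32 and 44, so HFD 2 was nearer to JQF than to HFD 1, and in macrophages it was 33, 5, 17 and 24. Across cells within a type and library, AP-1 and Egr counts moved with the other early response counts, with Spearman's rho from 0.397 in JQF endothelial cells (534 cells) to 0.856 in JQF B cells (350 cells). The relation of all early genes to heat shock genes ranged from -0.0731 in HFD 2 neutrophils (295 cells) to 0.756 in NCD endothelial cells (3307 cells). These are descriptions over cells of 1 library, which share its handling.

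As both programmes are known to answer to dissociation, measures of handling were set beside the levels. The labels give the same digestion for all samples, and no time from death to lysis was given in the sources used here. Median mitochondrial share per cell was 2.46% in NCD, 2.69% in HFD 1, 2.81% in HFD 2 and 2.79% in JQF, and UMIs outside called cells made up 10.5%, 6.68%, 7.74% and 7.20% of the libraries. Within types the mitochondrial median in NCD was below both HFD libraries in 6 of 7, neutrophils excepted, and in NK cells it was 1.74, 2.62, 2.56 and 2.24% in the order NCD, HFD 1, HFD 2 and JQF. The median depth of a cell in NCD was above both HFD libraries in all 7 types, and that in JQF in 5, macrophages and NK cells excepted. It was 10617, 7232, 6610 and 8048 UMIs in T cells and 10233, 7495, 5989 and 7080 in NK cells. Within NCD endothelial cells the AP-1 and Egr count had a rho of -0.381 with the mitochondrial share and 0.488 with the depth of the cell before thinning. Over the other combinations of type and library the rho with the mitochondrial share lay between -0.363 and 0.0458, and that with the depth between -0.306 and 0.348. The part of handling and of depth in the differences between libraries was not tested.

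Free RNA was read from empty droplets, where AP-1 and Egr sums were 6557, 7119.8, 7956 and 9676 CPM, highest in JQF, against 7074, 7542, 7799 and 11733 CPM over all kept cells. Heat shock sums were 6958, 9222, 8468 and 8258 CPM in empty droplets against 6822, 9155, 7954 and 9366 CPM over all kept cells. For the sums of both groups the ratio of cells to empty droplets lay between 0.939 and 1.21. Of the 11 heat shock genes 4, 5, 3 and 5 were higher in cells than in empty droplets. Hspa1a stood at 1143, 1166, 868 and 475 CPM in empty droplets and Hspa1b at 1225, 1319.8, 696 and 418 CPM. Both genes were thus higher in empty droplets than over all kept cells in every library. The part of free RNA in the levels of single types, Hspa1b in B cells included, was not tested. Nr4a3 in empty droplets stood at 254, 85.1, 45.2 and 216 CPM. Endothelial markers (10 genes) were 98.9, 13.4, 21.1 and 7.38 CPM in NK cells and 82.4, 5.60, 25.8 and 10.9 CPM in T cells, highest in NCD, with 7 to 10 of the 10 detected. In NK cells Mmrn2 was at 0 in NCD, Clec4g and Oit3 in HFD 1, Kdr and Mmrn2 in HFD 2, and Oit3, F8 and Cdh5 in JQF. The NCD values amount to 0.623% and 0.519% of the level in NCD endothelial cells, and this share was 0.218% in DC, 0.795% in B cells, 1.41% in neutrophils and 3.1% in macrophages. Hepatocyte markers (6 genes, all detected) were 205, 38.3, 97.6 and 213 CPM in NK cells and 424, 54.7, 103 and 192 CPM in B cells, highest in NCD in B cells and about equal in NCD and JQF in NK cells. Erythroid markers (3 genes) were 468, 13.4, 638 and 1578 CPM in endothelial cells and 16.6, 0.809, 412 and 3.79 CPM in T cells, highest in JQF and in HFD 2. Monocyte markers (6 genes) were 116, 395, 465 and 333 CPM in NK cells, with 3, 6, 5 and 6 detected, and 159.8, 400.3, 325 and 373 CPM in T cells, lowest in NCD in both. Markers of the type itself were lowest in NCD in B cells (2018, 3475, 3538 and 3457 CPM), T cells (1629, 2146, 2496 and 2023 CPM), NK cells (1207, 2111, 2220.1 and 1819 CPM) and neutrophils (29843, 51356, 49788 and 42249.5 CPM). They were highest in NCD in endothelial cells (15882, 9494, 12281 and 13368 CPM), lay between the HFD libraries in macrophages (16413, 13538, 17708 and 16925 CPM) and were lowest in JQF in DC (1154, 1276, 1292 and 1038 CPM). The part of these differences in the results was not tested.

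Some members share their position with other genes of the annotation, and the strand setting of the counting was not given in the sources used here. Jun overlaps Junos, Junb overlaps Prdx2, Zfp36 overlaps Gm44710, Cebpb overlaps Tmem189, Cebpd overlaps Spidr, Ppp1r15a overlaps Tulp2, Dnaja1 overlaps Smu1, Hspa1a overlaps Gm20481, Jund overlaps Gm11175 and Dusp1 overlaps Ergic1, all on the opposite strand. Dusp1 also overlaps AC122252.1 on its own strand, so that reads of these cannot be separated by strand. Hspd1 and Hspe1 overlap by 112 bases head to head, at the ends away from those where the reads of a 3′ library fall. The levels of the other members named here are uncertain to the extent of their overlaps.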

How the data were processed

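Single-cell RNA was measured in 4 mouse liver libraries made with a 3′ UMI kit. According to the labels the authors aligned reads to mm10 with Cell Ranger 6.0.1 and used Seurat 4.0.3, while headers of the files name other Cell Ranger versions. The authors deposited filtered and raw matrices of UMI counts, not normalized, with 1 library per sample.

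Barcodes needed 500 or more genes, with mitochondrial genes giving no more than 20% of UMIs. A cell was given a type by marker genes, none of them a member. It needed at least 2 detected markers that made up at least 30% of that type's list. This detected share had to lie at least 20 percentage points above the next type. Hepatocyte, erythroid and platelet markers were not counted as a next type. Cells whose hepatocyte markers reached 20000 CPM were called hepatocytes, or left out if another type had passed. The gate rule was set after the counts had been seen. Cells that met the share of a type but not the margin were left out as possible doublets. Types with at least 50 cells in every library were tested. Of the cells gated to a tested type, 86.6% to 99.2% fell in a Leiden cluster of the same type. Clusters named NK held 118, 433, 233 and 414 cells in NCD, HFD 1, HFD 2 and JQF. Gated NK cells numbered 53, 397, 206 and 262 in the same order, so the gates held fewer in every library, by the widest margins in NCD and JQF. Pairs of libraries shared 14 to 30 called barcodes.

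Counts were summed per library and type and tested across all genes with the edgeR 4.0.16 quasi-likelihood test (TMM, filterByExpr, Benjamini-Hochberg adjustment, threshold 0.05) on R 4.3.3. All 4 libraries entered each fit, which leaves 1 residual degree of freedom from the HFD pair. The lone NCD and JQF libraries were thus assumed to vary like HFD. Types were compared with the library as a block. DESeq2 1.42.0, other scalings, filters and cell definitions were alternatives. The SE was derived from the log2 fold change and the F statistic of each test. Per-cell values used cells thinned to 3000 UMIs, without shallower cells. The scripts were tested on simulated data.

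The 40 members and all gene lists were chosen with earlier results of these data known. Members with an adjusted p below 0.05 are given with fold changes, in part as ranges, with the 30 of lowest adjusted p and further examples for the comparison of types. Fos, Jun, Egr1, Nr4a1, Dusp1, Hspa1a, Hspa8 and Dnajb1 are given by their levels in every type whatever their test. The study's methods count 2 liver tissues for HFD and 1 each for NCD and JQF. For the group comparisons within a type, the p-values measure the spread between the HFD samples, moderated by a spread shared across genes. The prior degrees of freedom of these fits ran from 2.92 in macrophages to 11.9 in NK cells. Those of the comparison of types measure how differences between types vary over all 4 libraries, group differences included.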

Additional observations from a re-analysis of the deposited data

Results flagged for a closer look

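The change of the members between groups differed from one cell type to another by the edgeR interaction test, for pairs of types chosen after the data had been examined. For HFD vs NCD it differed between NK and endothelial cells for 21 of 40 members (8.86% of all genes), with the fold change lower in NK cells for 18 and higher for 3, and between NK cells and neutrophils for 18 (2.02%), all lower in NK cells. Between T and endothelial cells it differed for 16 (7.05%), of which 7 were lower and 9 higher in T cells. For JQF vs HFD 21 members differed between NK and endothelial cells (2.57%), all higher in NK cells, 19 between T and endothelial cells (2.59%), of which 3 were lower and 16 higher in T cells, and 1 between NK cells and neutrophils (0.186%), higher in NK cells. The fits with endothelial cells had an infinite prior, and the NK and neutrophil fit a prior of 17.8 degrees of freedom beside 1 residual degree.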

How the results depend on the processing

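For HFD vs NCD 78 calls became 134 without a filter on low counts and 119 with cells thinned to equal depth, and 97 to 117 under the other alternatives. For JQF vs HFD 35 calls became 84 without the filter, 60 with thinned cells and 22 with Leiden clusters in place of gates, and 32 to 40 otherwise. Of the 78 calls 65 were shared with the fit without filter, and of the 35 calls 20 with that on clusters. The cause of these moves was not tested. Between types 174 calls lay between 149 and 181, and between 149 and 180 when 1 library was left out. No named fold change reversed under any alternative run. Scaling by library totals moved the median of all genes by 0.203 in NK cells and 0.148 in endothelial cells for HFD vs NCD, and by -0.121 in B cells and -0.117 in NK cells for JQF vs HFD. Without 1 HFD library no test was possible, as no residual degree of freedom remained, and the named log2 fold changes moved by -0.733 to 0.475 for HFD vs NCD and by -0.364 to 0.464 for JQF vs HFD. No paired analysis was possible because the labels do not pair libraries of different groups.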

Other observations

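Monocytes were not tested, since NCD held 24 of them against 504, 703 and 375 in HFD 1, HFD 2 and JQF. Their AP-1 and Egr sums were 25342, 14486, 14682 and 17389 CPM in the order NCD, HFD 1, HFD 2 and JQF, above those of DC in every library. In NCD the monocyte sum was also above that of neutrophils (23049 CPM), while in the other libraries it was below. NR4A sums of monocytes were 2867, 1074, 1087 and 1341 CPM, and their heat shock sums 12414, 9821, 8661 and 10679 CPM. NCD was the highest library in all 3 groups, and JQF lay above both HFD libraries.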
